A study of Mus musculus with 19 samples.

Results

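The 7 genes described here were AA465934, Wdfy1, Rap1gap2, Ccdc92b, Adcy2, Col6a4 and Fbp1, taken from a table of 52143 genes. They were chosen on measured values: each differed by more than 3-fold between db/db and control lines of mouse induced pluripotent stem cells, and each was named as a gene that stayed near the db/db level in db/db lines that had been gene-corrected. The levels in the 3 groups therefore describe the choice and are given without a test. On these values 5 of the 7 genes fit that name, while Adcy2 and Fbp1 lay between the db/db and the control level in the corrected lines.

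The study reprogrammed fibroblasts from embryonic day 14.5 mouse embryos, bred from parents heterozygous for OB-Rdb, a mutation of the leptin receptor gene Lepr. Control lines were wild type, db/db lines were homozygous for the mutation, and corrected lines were db/db cells repaired with CRISPR-Cas9. All 3 groups carry the STEMCCA lentivirus, which expresses Oct4, Sox2, Klf4 and cMyc, so the transgene is shared by every line compared. Polyadenylated RNA was sequenced from 4 control lines (7 libraries), 4 db/db lines (8 libraries) and 2 corrected lines (4 libraries), each line in duplicate except a control line, aB6_A5, with a single library. The line was taken as the replicate, since the labels do not say that duplicates were separate cultures.

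Line names pair up: the control lines were aB6_A5 and bB6_A5, and aB6_B1 and bB6_B1; the db/db lines were adb_db5 and bdb_db5, and adb_db7 and bdb_db7; the corrected lines were db_c_1 and db_c_2. Over 9148 well-measured genes, the median absolute log2 difference was 0.033 to 0.106 between lines of the same shared name or between both corrected lines (5 pairs), against 0.138 to 0.319 for the 40 other pairs. Lines of a shared name thus lay close together, and p-values over lines may be too small. Which db/db line was corrected is not given in the labels, and the mutation cannot be told apart from other differences between the embryos from which the lines came. Libraries held 27333914 to 41203703 counts (median 34455891). In the second library of adb_db7, 4.81% of counts fell on the gene Gm42418, against 0.514% in its first library. In the libraries of the other lines this share was 0.0688% to 0.150%. Lepr itself was below 1 CPM (counts per 1000000 in the library) in all 10 lines, at 0.186 to 0.718 CPM, and an RNA level does not test the correction. Summed CPM of 10 pluripotency markers was 6896 to 7184 in control, 7284 to 7629 in db/db and 6622 to 6642 in corrected lines.

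The 7 genes belong to separate branches of cell biology. Rap1gap2 is a GTPase-activating protein that switches off Rap1, a small GTPase of integrin adhesion and cell junctions, and Adcy2 is an adenylyl cyclase that makes cyclic AMP, a messenger that also reaches Rap1 through the exchange factor Rapgef3 (Epac). Fbp1 is a fructose bisphosphatase of gluconeogenesis, Col6a4 a chain of the extracellular matrix protein collagen VI, and Wdfy1 a WD-repeat protein whose FYVE domain binds the lipid PI3P on early endosomes and which takes part in TLR3 and TLR4 signalling. Ccdc92b encodes a coiled-coil protein, and AA465934 is annotated as a noncoding RNA that hosts the small nucleolar RNA Snord7.

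On GRCm38, with GENCODE M21 annotation, Rap1gap2 lies at chr11:74383356-74610915 on the minus strand and Ccdc92b at chr11:74619605-74641516 on the plus strand. Both are transcribed outwards from a gap of 8689 bases. AA465934 lies 8.67 Mb from Ccdc92b on the same chromosome, at chr11:83291699-83294632 on the plus strand. Adcy2 (chr13:68620043-68999541, minus) and Fbp1 (chr13:62864753-62888282, minus) lie 5.76 Mb apart. Col6a4 is at chr9:105989454-106096783 and Wdfy1 at chr1:79702262-79776143, both on the minus strand. Wdfy1 overlaps Mrpl44, on the opposite strand, by 126 bases.

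RefSeq promoter windows (build GRCm38.p6, 250 bases before to 50 after a start site) were found for 5 of the 7 genes, in 8 entries. Wdfy1 and Ccdc92b had no entry. The windows of 3 genes are shown, 1 that is high in db/db lines and 2 that are low there, because they differ in base composition and motifs; capitals mark 3 motifs searched on both strands. These are the GC box, spelled GGGCGG, the CCAAT box, spelled as named, and the palindromic E-box, spelled CACGTG. The Rap1gap2 window is chr11:74610866-74611165 (minus), the outermost of 4 Rap1gap2 entries, that of Adcy2 is chr13:68999492-68999791 (minus) and that of AA465934 is chr11:83291449-83291748 (plus).
Rap1gap2: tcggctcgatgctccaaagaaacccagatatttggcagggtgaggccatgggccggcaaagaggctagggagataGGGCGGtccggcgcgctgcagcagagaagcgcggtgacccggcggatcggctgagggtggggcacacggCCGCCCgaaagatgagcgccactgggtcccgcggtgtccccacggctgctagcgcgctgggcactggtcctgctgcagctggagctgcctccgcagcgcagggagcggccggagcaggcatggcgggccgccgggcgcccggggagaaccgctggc
Adcy2: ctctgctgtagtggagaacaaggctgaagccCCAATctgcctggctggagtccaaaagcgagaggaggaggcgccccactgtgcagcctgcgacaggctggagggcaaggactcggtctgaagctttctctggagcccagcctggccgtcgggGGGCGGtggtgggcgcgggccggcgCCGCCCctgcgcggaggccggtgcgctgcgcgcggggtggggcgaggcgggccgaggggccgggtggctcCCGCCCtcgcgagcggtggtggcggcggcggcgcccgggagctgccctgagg
AA465934: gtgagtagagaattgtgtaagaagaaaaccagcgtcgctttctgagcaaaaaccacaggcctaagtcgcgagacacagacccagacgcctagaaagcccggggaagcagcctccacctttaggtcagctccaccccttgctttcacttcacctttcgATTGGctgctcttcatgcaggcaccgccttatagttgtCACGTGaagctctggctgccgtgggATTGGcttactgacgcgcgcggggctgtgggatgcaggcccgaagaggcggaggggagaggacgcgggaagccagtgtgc

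The windows of Rap1gap2 and Adcy2 held 31 and 32 CpG dinucleotides at a GC content of 71.3% and 75%, and that of AA465934 held 18 at 58.0%, against a median of 7 over all 32851 promoter windows. The Col6a4 and Fbp1 windows held 5 and 6. The 2 GC boxes of Rap1gap2 and the 3 of Adcy2 are a motif found in 35.66% of all windows. GC boxes stood also in the windows of Col6a4 (2) and Fbp1 (1) and in every other Rap1gap2 window, but not in that of AA465934. The 2 CCAAT boxes of AA465934 are found in 37.41% and its E-box in 7.15%; a CCAAT box stood also in the windows of Adcy2, Col6a4 and Fbp1, and 2 stood in another Rap1gap2 window, which starts at 74558978 and held 4 CpG at a GC content of 52.3%. The remaining pair of Rap1gap2 windows held 39 and 30 CpG. The motif TTCNNNGAA, bound by STAT factors of cytokine receptor signalling, was in none of the 8 windows and in 8.3% of all. The cyclic AMP response element TGACGTCA (1.79% of all) and TATAAA (13.62%) were also in none of the 8. These matches describe letters and not sites, and no binding or methylation was measured here.

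AA465934, the noncoding RNA, was high in db/db and corrected lines and low in control lines. It stood at 0.943 CPM in aB6_A5, 0.624 in bB6_A5, 0.561 in aB6_B1 and 0.798 in bB6_B1, against 9.81 in adb_db5, 11.3 in bdb_db5, 11.3 in adb_db7 and 11.4 in bdb_db7. The corrected lines db_c_1 and db_c_2 read 10.04 and 9.47 CPM. No control line approached the others, and the corrected lines sat at or just below the lower end of the db/db range. Group means were 0.732 ± 0.173 CPM (SD, n = 4) in control, 10.96 ± 0.767 (n = 4) in db/db and 9.75 ± 0.402 (n = 2) in corrected lines, a log2 difference between db/db and control of 3.92 ± 0.16 (SE), or 15.1-fold. Corrected lines differed from db/db lines by -0.17 ± 0.17. The control libraries held 175 counts of this RNA in all, so the low levels are the less precise ones: duplicates of aB6_B1 differed by 2.69-fold. Over all 9 lines with duplicates the median ratio was 1.07.

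Wdfy1 was the other gene that was higher in db/db lines. It stood at 9.905 CPM in aB6_A5, 10.28 in bB6_A5, 7.82 in aB6_B1 and 7.67 in bB6_B1. In db/db lines it read 29.79 in adb_db5, 29.31 in bdb_db5, 31.29 in adb_db7 and 35.87 in bdb_db7, and the corrected lines read 31.83 and 31.37 CPM. Both corrected lines therefore fell inside the range of the db/db lines. The db/db lines were 3.54-fold above control (log2 1.83 ± 0.12), the smallest difference among the 7 genes, and the corrected lines differed from db/db by 0.00 ± 0.14. The estimated counts of Wdfy1 were not whole in any of the 19 libraries, so part of its reads were divided between transcripts that share sequence.

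Rap1gap2, the inhibitor of Rap1, was lower in db/db lines, and its level also depended on the shared name. It stood at 15.49 CPM in aB6_A5 and 14.88 in bB6_A5, and at 37.55 in aB6_B1 and 37.12 in bB6_B1. In db/db lines it read 1.954 in adb_db5, 1.824 in bdb_db5, 0.913 in adb_db7 and 0.985 in bdb_db7, and in corrected lines 2.34 and 2.27 CPM. The 3 groups did not overlap, and the corrected lines stood just above the db5 lines and farther above the db7 lines. Db/db lines were 18.4-fold below control (log2 -4.20 ± 0.41), and corrected lines differed from db/db lines by 0.69 ± 0.46.

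Ccdc92b, whose start lies beside that of Rap1gap2, was also highest in the B1 lines, lower in the A5 lines and lowest in the db7 lines. It stood at 11.3 CPM in aB6_A5, 11.02 in bB6_A5, 32.0 in aB6_B1 and 30.22 in bB6_B1. Db/db lines read 2.82 in adb_db5, 2.675 in bdb_db5, 0.964 in adb_db7 and 0.673 in bdb_db7, and the corrected lines 2.375 and 2.74. Here the corrected lines overlapped the db/db range, within which they lay nearer to the db5 than to the db7 lines. The difference between db/db and control was -3.56 ± 0.54 (11.8-fold lower), and that between corrected and db/db was 0.51 ± 0.62.

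Adcy2 was low in every line and lowest in db/db. Control lines read 2.53 CPM in aB6_A5, 2.69 in bB6_A5, 4.18 in aB6_B1 and 3.81 in bB6_B1. Db/db lines read 0.297 in adb_db5, 0.294 in bdb_db5, 0.237 in adb_db7 and 0.250 in bdb_db7, and the corrected lines 0.626 and 0.548. Both corrected lines were above every db/db line and below every control line. Db/db lines were 12.2-fold below control (-3.61 ± 0.22), corrected lines were 2.17-fold above db/db (1.12 ± 0.26) and still 5.62-fold below control (-2.49 ± 0.26). Behind the db/db values were 70 counts over 8 libraries.

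Col6a4 showed little spread among control lines, with 1.32 CPM in aB6_A5, 1.31 in bB6_A5, 1.495 in aB6_B1 and 1.48 in bB6_B1. Db/db lines read 0.170 in adb_db5, 0.124 in bdb_db5, 0.0846 in adb_db7 and 0.219 in bdb_db7, and corrected lines 0.209 and 0.202. The corrected lines lay within the db/db range. Db/db lines were 9.23-fold below control (-3.21 ± 0.25), and corrected lines differed from db/db by 0.45 ± 0.33. Only 39 counts lay behind the 8 db/db libraries and 30 behind the 4 corrected ones, and the duplicates of bdb_db5 differed by 3.42-fold.

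Fbp1, the gluconeogenic enzyme, was the gene whose corrected lines lay farthest from the db/db level. Control lines read 1.09 CPM in aB6_A5, 1.26 in bB6_A5, 1.02 in aB6_B1 and 0.884 in bB6_B1. Db/db lines read 0.156 in adb_db5, 0.0773 in bdb_db5, 0.1015 in adb_db7 and 0.0939 in bdb_db7, and corrected lines 0.379 and 0.231. Both corrected lines were above every db/db line. Db/db lines were 9.71-fold below control (-3.28 ± 0.27), and corrected lines were 2.80-fold above db/db (1.49 ± 0.33) and 3.46-fold below control (-1.79 ± 0.31). The db/db libraries held 28 counts in all; the second library of bdb_db5 held 0, which allows a level of up to 0.0993 CPM. Without db_c_1, whose first library held 21 counts against 8 in its second, the difference of corrected from control lines was -2.18.

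**Figure D1:**
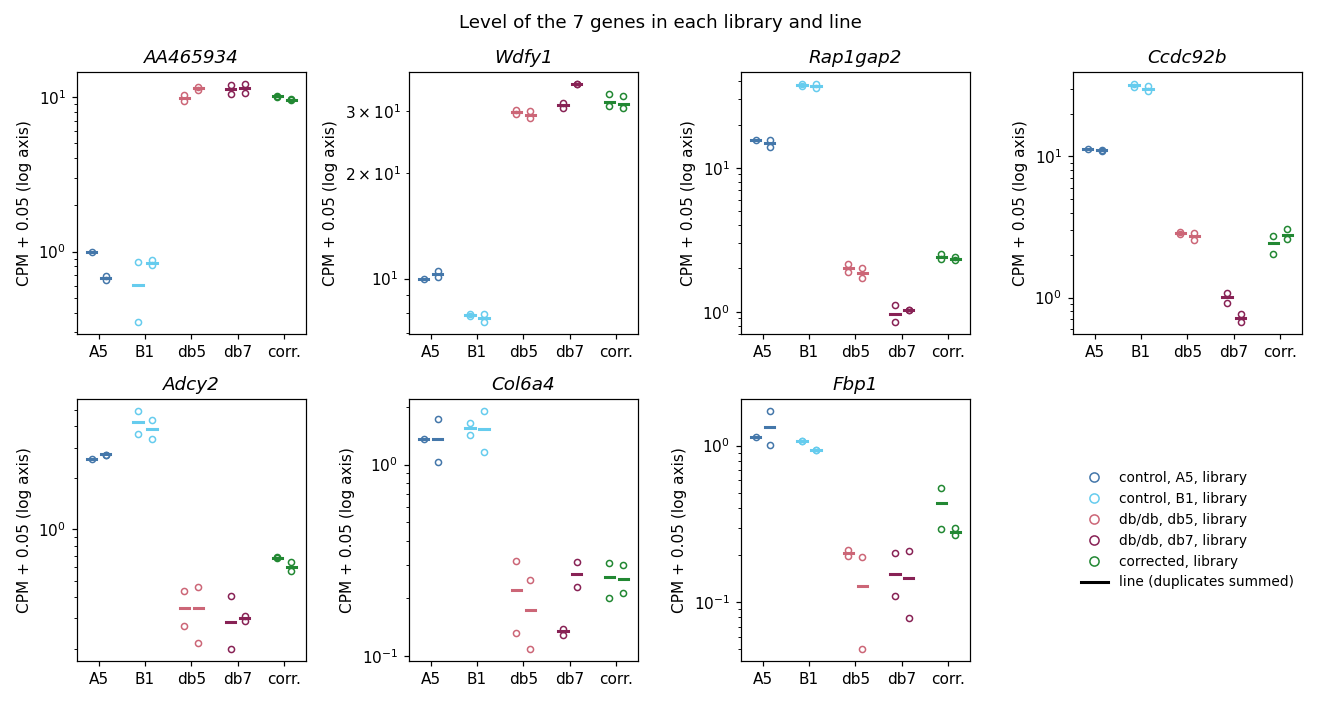
Level of each gene (CPM plus 0.05, log axis) by shared line name; open circles are libraries and bars are lines with duplicates summed. AA465934 and Wdfy1 are high and the other 5 genes low in db/db lines, and the corrected lines lie outside the control range in all 7 panels.

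Db/db and control lines did not overlap for any of the 7, a measure from the contrast that chose them, where 23.3% of the 19700 tested genes showed no such overlap. Corrected and control lines did not overlap for 7 of 7 either (61.7% of tested genes, with only 2 corrected lines), and corrected and db/db lines did not overlap for 3 of 7, namely Rap1gap2, Adcy2 and Fbp1 (60.6%). Expressed as the share of the log2 distance from the db/db to the control level, the fitted position of the corrected lines was -0.093% for Wdfy1, 4.29% for AA465934, 13.95% for Col6a4, 14.4% for Ccdc92b, 16.4% for Rap1gap2, 31.0% for Adcy2 and 45.4% for Fbp1. The first 5 were within 25% of the db/db level. For Fbp1 the lines were apart, at 53.2% for db_c_1 and 31.7% for db_c_2. Positions of single lines were taken from log2 CPM and not from the fit, so the fitted value need not lie between them. For Ccdc92b the lines stood at 18.2% and 23.9%, both above its fitted value.

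**Figure D2:**
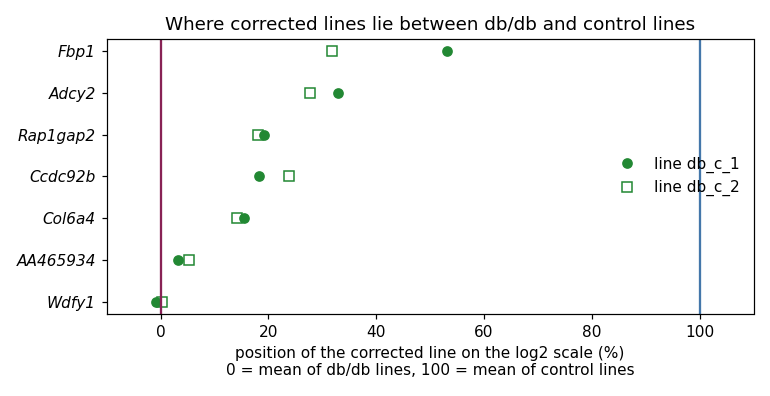
Position of corrected lines db_c_1 (filled circles) and db_c_2 (open squares) on the log2 scale, in percent, with 0 at the mean of db/db lines and 100 at the mean of control lines. Wdfy1 and AA465934 lie close to 0, and Fbp1 lies farthest from it, with the widest gap between its lines. Positions are from the log2 CPM of each line and not from the fit of the groups.

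Levels per kb of exon allow the genes to be set side by side. In control lines Ccdc92b (5.28 CPM per kb) and Rap1gap2 (3.67) were the highest of the 7 and Col6a4 (0.164) the lowest. In db/db lines the order was led by AA465934 at 15.4 and Wdfy1 at 4.865 CPM per kb, with the other 5 between 0.0175 and 0.445. The corrected lines had AA465934 at 13.7, Wdfy1 at 4.87, Ccdc92b at 0.639 and Rap1gap2 at 0.321 CPM per kb.

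The rule drew its genes from a wider set. Of 19700 tested genes, 16.9% were called in db/db against control (edgeR quasi-likelihood test, Benjamini-Hochberg adjusted p under 0.05), and 559 (2.84%) were both called and more than 3-fold apart, 107 higher and 452 lower in db/db. Of those 559, the corrected lines stayed within 25% of the db/db level for 123 (22%), of which 42 were higher and 81 lower in db/db, and moved at least 75% of the way to control for 149. The median position was 46.91%. Among those of the 123 with at least 1 CPM in control or db/db lines, predicted genes left out, genes just above the 3-fold limit included Misp at 3.04-fold and Fgfbp1 at 3.09-fold; below that level of expression, Slc10a6 stood at 3.02-fold. At the same minimum level, those just below it that also kept the db/db level were Icam2 at 2.96-fold, Myo1f at 2.94-fold and Atf3 at 2.93-fold. By size of the log2 difference between db/db and control, Rap1gap2 ranked 45, AA465934 51, Adcy2 60, Ccdc92b 63, Fbp1 72, Col6a4 81 and Wdfy1 517 among the 19700 genes.

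The choice of genes did not use differences within a genotype, so these could be tested. Lines of a shared name lay close together and the labels do not state separate cultures. The p-values between B1 and A5 lines and between db7 and db5 lines may therefore be too small. Between the B1 and A5 control lines (2 lines each), 4 of the 7 genes were called, where 38.8% of all tested genes were. Rap1gap2 was higher in B1 lines by 1.30 ± 0.06 on the log2 scale (2.46-fold; edgeR adjusted p = 5.5e-08) and Ccdc92b by 1.48 ± 0.09 (2.79-fold; edgeR adjusted p = 3.2e-07). Adcy2 was also higher in B1, by 0.61 ± 0.12 (1.53-fold; edgeR adjusted p = 0.0015), and Wdfy1 was lower, at -0.39 ± 0.08 (edgeR adjusted p = 0.0017). AA465934 (-0.14 ± 0.24), Col6a4 (0.18 ± 0.22) and Fbp1 (-0.32 ± 0.25) did not pass, with edgeR adjusted p-values of 0.68, 0.57 and 0.35.

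Between the db7 and db5 lines (2 lines each), 3 of the 7 were called, against 42% of all tested genes. Rap1gap2 was lower in db7 lines by -0.99 ± 0.11 (1.99-fold; edgeR adjusted p = 2.9e-05) and Ccdc92b by -1.75 ± 0.15 (3.37-fold; edgeR adjusted p = 3.8e-06), so the 2 adjacent genes differed in the same direction as each other in both genotypes. Wdfy1 was higher in db7 lines by 0.19 ± 0.06 (edgeR adjusted p = 0.03), and that call ended with DESeq2 (adjusted p = 0.075) and without any of 6 single lines, at edgeR adjusted p-values of 0.055 to 0.26. Those lines were aB6_B1, adb_db5, bdb_db5, bdb_db7, db_c_1 and db_c_2. Adcy2 (-0.28 ± 0.23), AA465934 (0.11 ± 0.12), Fbp1 (-0.27 ± 0.49) and Col6a4 (0.06 ± 0.42) did not pass, at edgeR adjusted p-values of 0.54, 0.5, 0.71 and 0.93. The db/db libraries held 28 counts of Fbp1 and 39 of Col6a4, and small differences were not detectable at this depth.

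**Figure D3:**
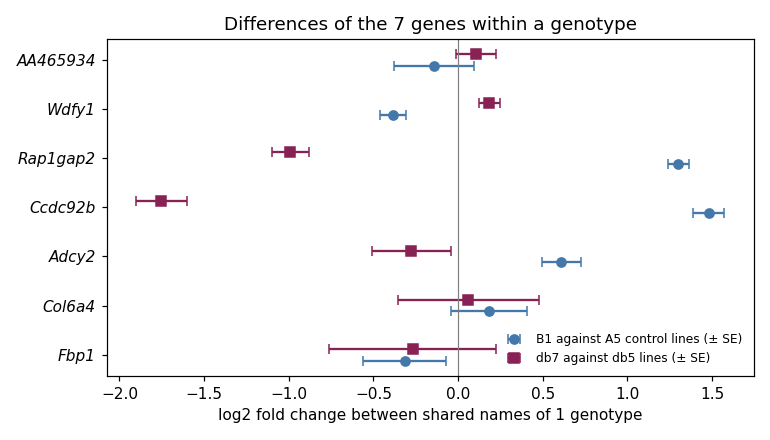
Log2 difference (± SE) of each gene between B1 and A5 control lines (circles) and between db7 and db5 lines (squares), 2 lines per name. Rap1gap2 and Ccdc92b have the widest differences, positive between control lines and negative between db/db lines.

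Over the 10 lines, Rap1gap2 and Ccdc92b had a Pearson correlation of log2 CPM of 0.984. As the genes were chosen for a common pattern over the groups, such values only describe the choice. The 10 lines also include pairs of a shared name, which lay close together. Among 9908 other genes of at least 5 CPM, the nearest to Rap1gap2 was Atf3, a stress-induced transcription factor (r = 0.995; 18.42, 6.28 and 7.38 CPM in control, db/db and corrected lines). The nearest to Ccdc92b was the ephrin receptor Ephb4 (r = 0.992). The nearest to Adcy2 was Dlgap3, a scaffold protein of synapses (r = 0.993; 112.9, 46.78 and 59.23 CPM). Mapre1, a protein of microtubule ends, was nearest to both AA465934 (r = 0.991) and Wdfy1 (r = 0.989), with 179.1, 237.5 and 240.7 CPM. AA465934 was followed by Zrsr2, a splicing factor on chromosome X (r = 0.991; 55.36, 107.3 and 101.2 CPM). Fbxo15, a target of Oct4 in stem cells, was nearest to Col6a4 (r = 0.968; 126.7, 84.89 and 93.21 CPM). Among the genes most like Fbp1 were Nrros (r = 0.973; 9.21, 4.47 and 6.755 CPM) and the phosphatase Dusp14 (r = 0.972; 16.71, 6.48 and 10.28 CPM).

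Genes around the 7 were chosen by position alone, as tested genes starting within 1 Mb of a member's start, and could be tested in all comparisons. Of 157 such neighbours, 18 were higher and 24 lower in db/db than in control lines, or 26.75% against the 16.9% of all tested genes given above. Between corrected and db/db lines, 30 were higher and 33 lower, or 40.13% against 36.7% of all tested genes, and between corrected and control lines 24 and 27, or 32.48% against 33.2%. The medians of the neighbours' log2 differences were 0.022, -0.007 and 0.004, and those of all tested genes -0.001, 0.021 and -0.008. The share in db/db against control fell to 1.183% when lines of a shared name were joined, a unit with which 34 of all tested genes were called instead of 3332 (0.161%). Without the control line bB6_B1 it was 16.67%, against 10.3% of all tested genes. That between corrected and db/db lines was 15.38% with the shared name as the unit, 16.87% without db_c_1 and 16.56% without db_c_2, against 15.5%, 15.2% and 15.5% of all tested genes.

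None of the 5 tested neighbours that start within 250 kb of Ccdc92b had a difference near that of Ccdc92b or Rap1gap2. Cluh, which binds messenger RNAs of mitochondrial proteins and follows Ccdc92b on the same strand, read 263.9 CPM in control, 204.8 in db/db and 160.4 in corrected lines, and it fell in db/db by 0.37 on the log2 scale (edgeR adjusted p = 0.0026). Pafah1b1, a regulator of dynein, had a difference of 0.11 (edgeR adjusted p = 0.13), and Mettl16, an RNA methyltransferase, one of -0.09 (edgeR adjusted p = 0.41). Mnt, a partner of Max, and Sgsm2 rose in db/db by 0.17 and 0.28 (edgeR adjusted p = 0.036 and 0.041), calls that ended without most single lines.

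AA465934 lies beside a group of Slfn genes. In db/db against control, 9 of its 31 neighbours (29.03%) were called, 2 higher and 7 lower, where 16.9% of all tested genes were. The share was 41.94% in corrected against db/db and 29.03% in corrected against control, against 36.7% and 33.2% of all tested genes. Ap2b1, an adaptor subunit of clathrin-coated vesicles that starts just past AA465934, rose by 0.22 (edgeR adjusted p = 0.02; the call ended without bB6_B1 or adb_db7). Slfn9, which starts 313 kb before AA465934 and was looked at because it too kept the db/db level, read 7.03 ± 0.982 CPM (SD, n = 4) in control, 1.17 ± 0.229 (n = 4) in db/db and 1.11 ± 0.0985 (n = 2) in corrected lines. Among the 123 genes it was the only one, other than the members, within 1 Mb of one of the 7. It differed in the opposite direction to AA465934 (log2 -2.59). As Slfn9 was picked through this same comparison, its difference is given without a test. Slfn4 fell by 0.74 (edgeR adjusted p = 0.025), and Slfn3 read 8.23 CPM in both groups. Rasl10b and Mmp28, low in all lines, fell by 1.56 and 1.64 in db/db (edgeR adjusted p = 0.0075 and 0.029). In corrected lines both were higher than in db/db, by 1.81 and 1.59 (edgeR adjusted p = 0.0026 and 0.031). The Slfn4 call ended without any of 6 single lines and both Mmp28 calls without either corrected line and some others, so of these 3 genes Rasl10b alone kept its calls with each line left out.

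Around Wdfy1, Mrpl44, whose first bases it overlaps, read 38.48 CPM in control, 36.14 in db/db and 28.95 in corrected lines (db/db against control -0.09; edgeR adjusted p = 0.29). Ap1s3 and Serpine2 had differences of 0.30 and -0.33 (edgeR adjusted p = 0.075 and 0.14). Around Adcy2, Mtrr, a reductase that keeps methionine synthase active, fell by 0.33 in db/db (edgeR adjusted p = 0.0058), and Fastkd3, of mitochondrial RNA metabolism, had a difference of 0.24 (edgeR adjusted p = 0.13) and was lower in corrected than in db/db lines by -1.17 (edgeR adjusted p = 0.00021). None of these named neighbours of Wdfy1 or Adcy2 had a db/db difference of the size of the member's own.

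**Figure D4:**
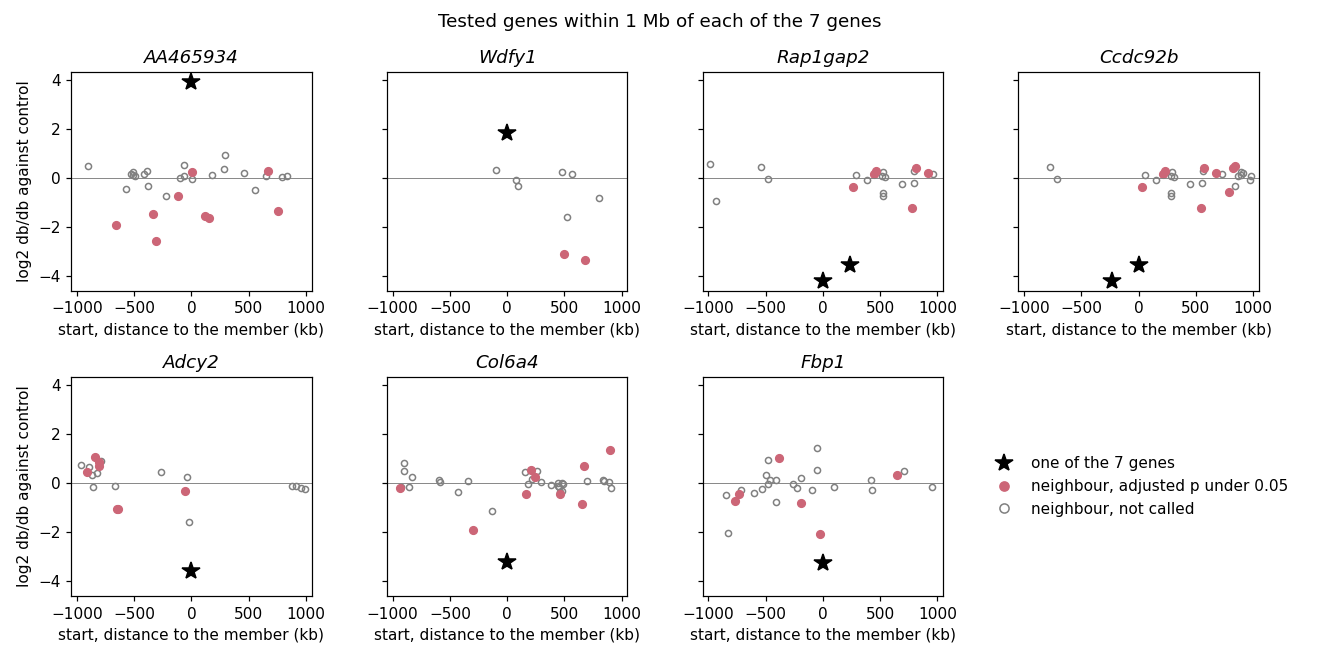
Log2 difference of db/db from control lines for tested genes starting within 1 Mb of each of the 7 genes, by the distance between start coordinates in kb; stars are the 7 genes, filled points neighbours with an adjusted p under 0.05 and open points other neighbours. Most neighbours lie near 0, and Slfn9 at 313 kb before AA465934 and Fbp2 next to Fbp1 are among those far below it.

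Fbp1 lies next to its paralogue Fbp2, the muscle-type fructose bisphosphatase, which lies 6331 bases away on the same strand. Fbp2 read 6.23 ± 1.08 CPM (SD, n = 4) in control lines, 1.46 ± 0.392 (n = 4) in db/db and 4.51 ± 0.232 (n = 2) in corrected lines. It fell in db/db by 2.09 ± 0.20 on the log2 scale (edgeR adjusted p = 0.00027) and was higher in corrected than in db/db lines by 1.62 ± 0.23 (edgeR adjusted p = 0.00075), reaching 77.6% of the way to control where Fbp1 reached 45.4%. Whether both genes differ in their return was not tested. With lines of a shared name joined, the fall of Fbp2 had an edgeR adjusted p of 0.082. Of 17 tested genes of gluconeogenesis and the fructose phosphate step, 1 rose and 3 fell in db/db, with a median log2 difference of 0.00, where 16.9% of all tested genes were called; the 4 calls were 2 without adb_db7. Besides Fbp2, Tigar, which breaks down fructose bisphosphates, fell by 0.50 (edgeR adjusted p = 0.00051) and Pck2, the mitochondrial PEP carboxykinase, by 0.50 (edgeR adjusted p = 0.019; the call ended without adb_db7). Foxo1, a transcription factor of gluconeogenic genes, rose by 0.72 (edgeR adjusted p = 0.019; the call ended without adb_db7).

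Col6a4 lies in a row with Col6a5 and Col6a6, genes of related collagen VI chains. Col6a5 read 0.503 CPM in control and 0.223 in db/db and 0.222 in corrected lines (log2 -1.16 ± 0.38; edgeR adjusted p = 0.063), and Col6a6 fell by 1.94 ± 0.49 (edgeR adjusted p = 0.025; the call ended without adb_db7 or bdb_db7) from 0.173 CPM. Col6a3, the chain with the highest CPM, had a difference of -0.52 ± 0.32 between db/db and control (edgeR adjusted p = 0.28). Col6a1 and Col6a2, chains encoded on chromosome 10, fell in db/db by 0.81 ± 0.15 and 0.84 ± 0.18 (edgeR adjusted p = 0.0062 and 0.014). In corrected lines both rose from the db/db level, by 1.19 ± 0.17 and 1.13 ± 0.22 (edgeR adjusted p = 0.00078 and 0.0031; the call for Col6a2 ended without db_c_1). The described value of Col6a4 there was 0.45 ± 0.33, and whether its return differs from theirs was not tested. Col6a1 read 13.33, 7.63 and 17.36 CPM in control, db/db and corrected lines. Of 11 genes of collagen VI chains, receptors and partners, 6 fell and 0 rose in db/db (median -0.81), where 16.9% of all tested genes were called. In corrected against db/db, 4 rose and 0 fell (median 0.68), where 36.7% of all tested genes were called. These counts were 3 in db/db without bB6_B1, and 1 and 2 in corrected against db/db without db_c_1 and db_c_2.

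Markers of other cell types differed between the groups as well. The summed level of 12 fibroblast markers was 215.8 to 300 CPM in control, 107.7 to 167.2 in db/db and 150.5 to 190.7 in corrected lines. Of 11 tested markers 6 fell in db/db and 0 rose, where 16.9% of all tested genes were called. In corrected against db/db lines 3 of the 11 rose and 0 fell, where 36.7% of all tested genes were called. Col1a1 and Col1a2 had differences of 0.18 and 0.23 there (edgeR adjusted p = 0.49 for each). The same shares of all tested genes stand beside the marker counts that follow. Of 8 primitive endoderm markers, 1 rose and 3 fell in db/db, and 6 rose and 0 fell in corrected against db/db lines, with a summed level of 154.2 to 161.8 CPM in control, 116.6 to 157.6 in db/db and 230.8 to 245.6 in corrected lines. Of 6 trophoblast markers 3 rose and 0 fell there (9.14 to 10.05, 10.3 to 14.44 and 16.1 to 16.56 CPM). The summed neural markers went the other way, at 74.55 to 115.6 CPM in control, 43.81 to 71.77 in db/db and 32.07 to 32.16 in corrected lines. Of these 6 genes, 1 rose and 2 fell in corrected against db/db lines, with a median log2 difference of 0.395. The fall of the sum therefore does not hold for the neural genes as a set. Of 3 blood markers 2 rose and 0 fell there. Among 5 hepatocyte markers only Hnf4a, of endoderm and liver, was tested, and it rose by 1.05 (edgeR adjusted p = 0.0012). Col1a1 and Col1a2 were detected in every line, and Lum was at 0 in 2 lines. Fewer fibroblast-like cells and less RNA per cell cannot be told apart in such bulk samples, and the part of these cell types in the levels of Col6a4, the other collagen genes or the remaining members was not tested.

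Of 25 Rap1 genes and regulators other than Rap1gap2, 1 rose and 1 fell in db/db against control (median -0.03), where 16.9% of all tested genes were called. In corrected against db/db lines 8 rose and 3 fell, where 36.7% were called. The 2 calls in db/db were 6 without aB6_A5 or bB6_A5 and 1 without adb_db7, and the 11 in corrected against db/db were 5 without either corrected line. Rapgef3, the cyclic AMP-responsive activator of Rap1, fell in db/db by 0.53 ± 0.08 (edgeR adjusted p = 0.002) and rose again in corrected lines by 0.58 ± 0.09 (edgeR adjusted p = 0.0011). Rapgef2, another activator, rose by 0.47 ± 0.12 (edgeR adjusted p = 0.025; the call ended without aB6_B1, bB6_B1 or adb_db7). Rap1a, a form of the GTPase itself, had a difference of 0.46 ± 0.14 (edgeR adjusted p = 0.051), and Rap1gap, the paralogue of Rap1gap2, one of -0.32 ± 0.11 (edgeR adjusted p = 0.078).

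Of 37 tested genes of cyclic AMP production, breakdown and response, 3 rose and 5 fell in db/db (median -0.24), where 16.9% of all tested genes were called. In corrected against db/db lines 21 rose and 4 fell (median 0.65), where 36.7% were called. The 8 calls in db/db were 5 without any of 6 lines (aB6_B1, bB6_A5, bB6_B1, adb_db7, db_c_1 or db_c_2), and the 25 in corrected against db/db were 10 without db_c_1 and 9 without db_c_2. The phosphodiesterase Pde3a fell in db/db by 0.98 ± 0.16 (edgeR adjusted p = 0.0045), and the inhibitory G-protein subunits Gnai1 and Gnai2 fell by 0.52 ± 0.12 and 0.34 ± 0.07 (edgeR adjusted p = 0.015 and 0.011), while the other inhibitory subunit in the list, Gnai3, rose by 0.57 ± 0.14 (edgeR adjusted p = 0.021; the call ended without aB6_B1, bB6_B1, adb_db7 or bdb_db7). Of the 8 other adenylyl cyclases tested, 7 were higher in corrected than in db/db lines (Adcy1, Adcy3, Adcy4, Adcy5, Adcy6, Adcy7 and Adcy9), and the log2 differences of all 8 lay between 0.68 and 2.09, beside the described 1.12 of Adcy2. The calls for Adcy1, Adcy3, Adcy5 and Adcy6 ended without either corrected line, and those for Adcy1 and Adcy5 also without adb_db7. Of 17 alternatives run, the Adcy5 call ended in 8 and the Adcy1 call in 4. In db/db against control edgeR called 0 of the 8 (2 had an unadjusted p under 0.05), with differences of -1.39 to 0.46 (edgeR adjusted p = 0.059 to 0.86), where that of Adcy2 was -3.61. The lowest of these, that of Adcy10, was called with DESeq2 and without bdb_db7, and that of Adcy6 likewise.

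Of 29 tested genes of FYVE proteins, PI3P metabolism and TLR3 and TLR4 signalling, 5 rose and 2 fell in db/db (median 0.05), where 16.9% of all tested genes were called. Wdfy2, the closest relative of Wdfy1 in the list, rose by 0.28 ± 0.07 (edgeR adjusted p = 0.021; the call ended without aB6_B1 or bB6_B1). Ikbke, a kinase of interferon induction, fell by 0.87 ± 0.14 (edgeR adjusted p = 0.004), while the adaptor Traf3 rose by 0.35 ± 0.06 (edgeR adjusted p = 0.0042) and Becn1, of the PI3-kinase complex of autophagy, by 0.24 ± 0.05 (edgeR adjusted p = 0.01). Tlr3 and Tlr4 did not pass, with differences of 0.01 and -0.96 (edgeR adjusted p = 0.99 and 0.17). Ccdc92, the paralogue of Ccdc92b, had a difference of 0.15 (edgeR adjusted p = 0.14). With lines of a shared name joined, the db/db against control calls named here for the lists and for the neighbours ended. Slfn9, picked through that comparison, is left out of this statement.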

How the data were processed

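Values deposited by the authors are estimated counts for each Ensembl gene. The submitters' processing notes name kallisto and GRCm38; its version, index and strand setting were not given in the sources used here. Estimated counts divide reads between similar transcripts; 79.67% of deposited values were whole within 1e-06. Names and coordinates came from GENCODE M21 (51336 of 52143 identifiers, 99.38% of counts).

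Counts were rounded per library, summed per line, filtered with filterByExpr (19700 genes) and TMM-scaled. The test was edgeR's quasi-likelihood test (version 4.0.16, R 4.3.3) with p-values adjusted by Benjamini-Hochberg, called under 0.05. A fit of the 3 groups gave comparisons between groups, and a fit of the 5 shared names gave those within a genotype. DESeq2 1.42.0 was an alternative. Scripts were tested on simulated data. CPM values are scaled by TMM. Correlations and the positions of single corrected lines used log2 CPM with a prior count of 2. Because no label states separate cultures, p-values cover only the spread among these samples, which may be technical.

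The 7 genes and the gene lists (13 lists, 176 entries) were chosen with earlier results of these data known, so list counts are descriptions. Genes named beside the 7 were tested neighbours within 250 kb, paralogues, up to 3 genes per list of lowest p, the 3 most alike per gene and those next to the 3-fold limit; a minimum of 1 CPM next to that limit, and Slfn9, Slc10a6, Gnai3, Hnf4a, the other cyclases, Tlr3 and Tlr4, were added after values were seen. A few genes that the rule names are not reported here.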

Additional observations from a re-analysis of the deposited data

Results flagged for a closer look

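Of 35 groups of 4 to 8 lines or libraries examined with Dixon's criterion, 3 had a value far from the others. Chance gives about 1 in 20 groups. AA465934 in line adb_db5, at 9.81 CPM, was the lowest of the 4 db/db lines, and its gap to the next was 0.907 of the range. Fbp1 in the second library of bB6_A5, at 1.61 CPM, was the highest of the 7 control libraries (0.715 of the range). Fbp1 in the first library of db_c_1, at 0.487 CPM from 21 counts, was the highest of the 4 corrected libraries (0.887 of the range).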

How the results depend on the processing

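The count of the 7 genes called between B1 and A5 lines was 4 in the main fit and in all alternatives run, and that between db7 and db5 lines was 2 or 3. No called value changed sign; among differences not called, that of AA465934 between B1 and A5 lines was 0.12 and 0.09 without aB6_A5 or aB6_B1, that of Fbp1 between db7 and db5 lines was 0.32 without adb_db5, and that of Col6a4 there was -0.80 without bdb_db7. The share of neighbours called in db/db against control (26.75%) was 13.9% with no filter on low counts (8.54% of all tested genes), 48.2% with each library as a sample (41.3%) and 1.183% with the shared name as the unit, and 16.67% to 29.94% with a line left out. That in corrected against db/db (40.13%) was 20.46% without the filter (19% of all tested genes), 15.38% with the shared name as the unit and 16.56% to 42.68% with a line left out. Calls over all genes in db/db against control numbered 3332, and 34, 7247, 1991 and 2021 with the shared name as the unit, with each library as a sample, and without aB6_B1 or bB6_B1. Without the second library of adb_db7, the one high in Gm42418, such calls numbered 3441 (17.5% of tested genes). Those in corrected against db/db numbered 7235, and 3281 with the shared name as the unit, 3113 without db_c_1 and 3183 without db_c_2; those in corrected against control were 6537, and 2547, 2438 and 2377. The log2 difference of the second from the first library was taken per line over 9148 genes and correlated between control and db/db lines. Over 12 pairs of lines r was -0.05 to 0.613, from none to a clear likeness. The numbers were not taken to pair samples in the main fit, and these values do not settle whether they do. With the replicate block on libraries the share of neighbours in db/db against control was 43.2% and 6188 genes (38.1%) were called. The cause of these changes was not tested. Counts of 28 to 70 in all db/db libraries limit Fbp1, Col6a4 and Adcy2.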

Other observations

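Among the other genes that kept the db/db level, 2 were picked after their values were seen. Zfp969, a zinc finger gene on chromosome 2, held 3, 33, 11 and 21 counts in the 4 control lines and 0 in all 4 db/db and both corrected lines. The mitochondrial gene mt-Nd3, a subunit of respiratory complex I, read 17.13 CPM in control, 59.37 in db/db and 64.55 in corrected lines.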
